A study of Mus musculus with 12 samples.

Results

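Ethanol given together with mephedrone was compared with mephedrone alone in the anterior striatum of male mice of the outbred Swiss CD-1 stock, treated as adolescents. The comparison rests on 6 of the 12 arrays of the study, 3 labelled mephedrone and 3 labelled mephedrone with ethanol, here called the combination, chosen by their source labels. The other 6 arrays hold saline and ethanol, 3 each, and enter the fit as further estimates of the spread between arrays. All mice went through a 10-day conditioned place preference procedure, in which a drug is paired with a compartment to measure reward, and were given their treatment 15 minutes before being placed in the paired compartment. Doses, the hour of collection and whether each array holds a separate animal are not given in the labels. The p-values set a difference between groups against the spread of the arrays within groups. As the arrays may not hold separate animals, that spread may be technical. The series title names D3 receptors, and the comparison asks which striatal transcripts differ when ethanol is added to mephedrone.

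Mephedrone is a synthetic cathinone that releases dopamine and serotonin by acting on the plasma membrane monoamine transporters. Ethanol acts on many targets, among them GABA-A and NMDA receptors, and raises dopamine in the ventral striatum. Most striatal neurons are GABAergic projection neurons that carry either the D1 or the D2 dopamine receptor, with the D3 receptor concentrated in the ventral striatum, and their activity is read from immediate early genes such as Fos and Npas4.

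No transcript passed the test for a difference between the combination and mephedrone. Of 28853 probe sets 0 (0%) had an adjusted p under 0.05 in limma with all arrays, and the smallest adjusted p was 0.988. Unadjusted, 1062 probe sets (3.68%) had a p under 0.05 in limma, 485 (1.68%) higher and 577 (2%) lower in the combination, where 1443 would be expected if no probe set differed. Without the third combination array 0 passed as well, with 584 (2.02%) under an unadjusted 0.05 and a smallest adjusted p of 1 in limma. The arrays of the groups did not overlap for 2817 probe sets (9.76%), and for 5003 (17.3%) without the third combination array.

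**Figure D1:**
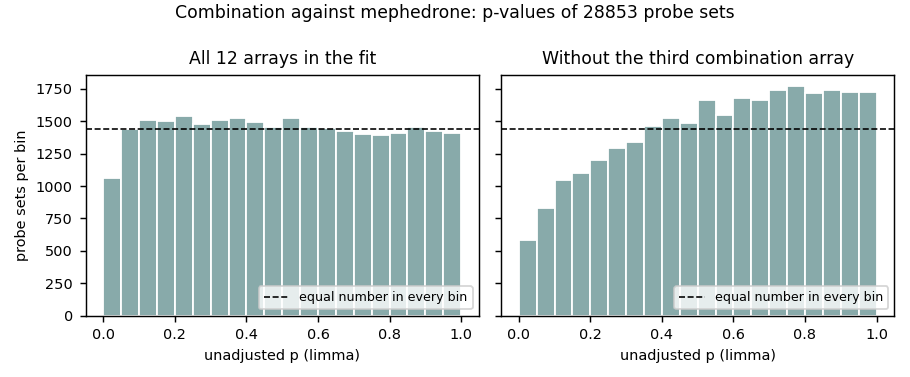
Unadjusted p-values of limma for the combination against mephedrone over 28853 probe sets, in bins of 0.05, with all arrays (left) and without the third combination array (right). The dashed line is the number each bin would hold if all bins were equal. The lowest bin holds 1062 and 584 probe sets, below the line at 1443 in both panels.

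Differences were small and their intervals narrow for most probe sets. The median size of the difference over all probe sets was 0.037 in log2, against a median standard error of 0.053 and a median half-width of the 95% interval of 0.116, a 1.08-fold difference. For 28407 probe sets (98.5%) the 95% interval lay within a 1.5-fold difference in either direction, and for 28517 (98.8%) without the third combination array. These shares count every probe set, as those without signal over background cannot be told apart in a centred table. The intervals also rest on arrays not known to hold separate animals. A difference of 1.5-fold or more together with an unadjusted p under 0.05 in limma was met by 17 probe sets (0.0589%), and by 5 (0.0173%) without the third combination array. By size alone 36 probe sets reached 1.5-fold, 17 higher and 19 lower in the combination. Among the 17 higher ones the third combination array was the most extreme of the 6 arrays compared for 15, and 2 still reached 1.5-fold without it. Among the 19 lower ones it was the most extreme for 5, and 3 still reached 1.5-fold without it.

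The third combination array differed from the other arrays in the markers of several cell types. It had been singled out for its tissue make-up with earlier results of these data known, so that its marker values are a description and no test. Its values had the widest spread of the 12 arrays, with a standard deviation over probe sets of 0.169 against 0.127 in the first ethanol array and 0.068 to 0.102 in the remaining arrays. Of all 19938 genes with a symbol, 3619 were highest of the 12 arrays in it and 2662 were lowest. The marker counts below are to be read against these numbers. Values are log2 differences from the median of a probe set over the 12 arrays, so that the level of a marker is relative and the tissue of an array cannot be read from absolute levels. Fewer cells of a type and less RNA per cell cannot be told apart in such tissue samples.

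Markers of the choroid plexus, the secretory epithelium of the brain ventricles, had a list mean of 0.46, -0.15 and -0.10 in the mephedrone arrays and of -0.04, 0.47 and 1.61 in the combination arrays. All 19 measured markers were highest of the 12 arrays in the third combination array. Kcnj13, a potassium channel of that epithelium, stood at 2.03, -0.24 and 0.00 with mephedrone and at -0.03, 2.01 and 4.36 with the combination. Ttr, which encodes the transthyretin secreted by the choroid plexus, stood at 1.80, -0.69 and -0.59 and at 0.05, 1.61 and 2.55. The first mephedrone array and the second combination array thus also carried more of these transcripts than the others of their groups, as did the second saline array (list mean 0.89) and the first ethanol array (0.65).

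Markers of oligodendrocytes, the cells that form myelin, had a list mean of 0.54 in the third combination array, against -0.03 and -0.04 in the other combination arrays and -0.15 to 0.02 with mephedrone. All 16 measured markers were highest of the 12 arrays there. Ermn, a cytoskeletal protein of myelin sheaths, stood at -0.12, 0.01 and 0.80 in the combination arrays, and Aspa, which cleaves N-acetylaspartate, at -0.01, 0.01 and 0.85. Oligodendrocyte precursors followed with list means of 0.01, -0.02 and 0.29, and astrocytes with 0.07, -0.03 and 0.20. The third array was highest of the 12 for 7 of 10 precursor markers. Among 14 astrocyte markers it was highest for 5 and lowest for 1.

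Neuronal markers of the third combination array lay apart in both directions. Markers of cortical excitatory neurons had a list mean of -0.07, 0.00 and 0.52 in the combination arrays and of -0.07, 0.27 and -0.01 with mephedrone. Of 21 measured markers 13 were highest of the 12 arrays in the third combination array and 3 were lowest there. Tbr1, a transcription factor of deep cortical layers, stood at -0.22, 0.01 and 1.54 with the combination and at -0.12, 0.64 and 0.00 with mephedrone. Pan-striatal projection neuron markers had a list mean of -0.01, -0.01 and -0.31, against 0.01 to 0.02 with mephedrone, and 15 of 17 were lowest of the 12 arrays in the third combination array. Ptpn5, the striatum-enriched tyrosine phosphatase STEP, stood at 0.04, -0.07 and -0.52, and Rarb, a retinoic acid receptor of striatal neurons, at -0.01, 0.01 and -0.48. Cholinergic interneuron markers had list means of 0.14, -0.05 and -0.32. Slc10a4, a transporter-like protein of cholinergic synaptic vesicles, stood at 0.11, -0.01 and -0.90 there.

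**Figure D2:**
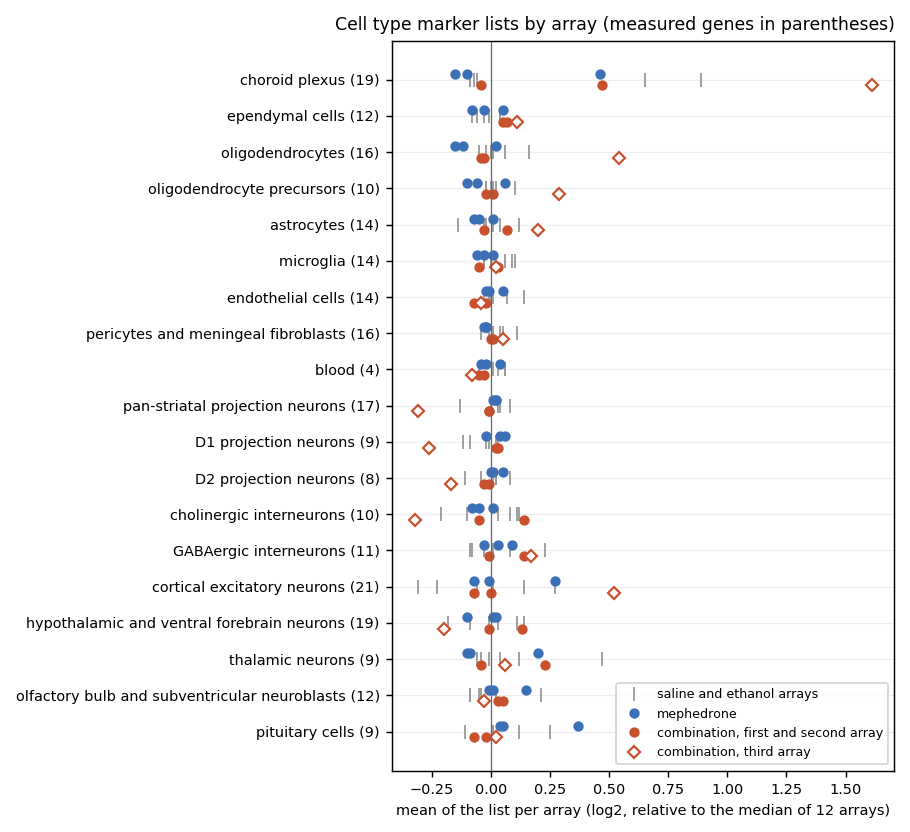
Mean log2 value of 19 cell type marker lists in each array, relative to the median of the 12 arrays. Blue points are mephedrone, filled red points the first and the second combination array, the open diamond the third, and grey ticks saline and ethanol. The diamond lies at 1.61 for choroid plexus, 0.54 for oligodendrocytes, 0.52 for cortical excitatory neurons and -0.31 for pan-striatal projection neurons, outside the other 11 arrays.

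The medians of these lists in the comparison of groups moved when the third array was left out. For choroid plexus the median difference between the combination and mephedrone was 0.554 with all arrays and 0.107 without the third one, for oligodendrocytes 0.239 and 0.050, and for oligodendrocyte precursors 0.152 and 0.020. For pan-striatal projection neurons it was -0.129 and -0.025, with 17 of 17 measured members below 0 in the first case and 15 of 17 in the second. D1 projection neuron markers went from -0.099 to 0.008, and D2 projection neuron markers from -0.074 to -0.051. For cortical excitatory neurons the median turned from 0.085 to -0.063, and for cholinergic interneurons from -0.037 to 0.101. Over all 19938 genes with a symbol the median was 0.003 with all arrays, with 10338 above and 9600 below 0, and 0.002 without the third combination array. None of the members of any list had an adjusted p under 0.05 in limma.

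**Figure D3:**
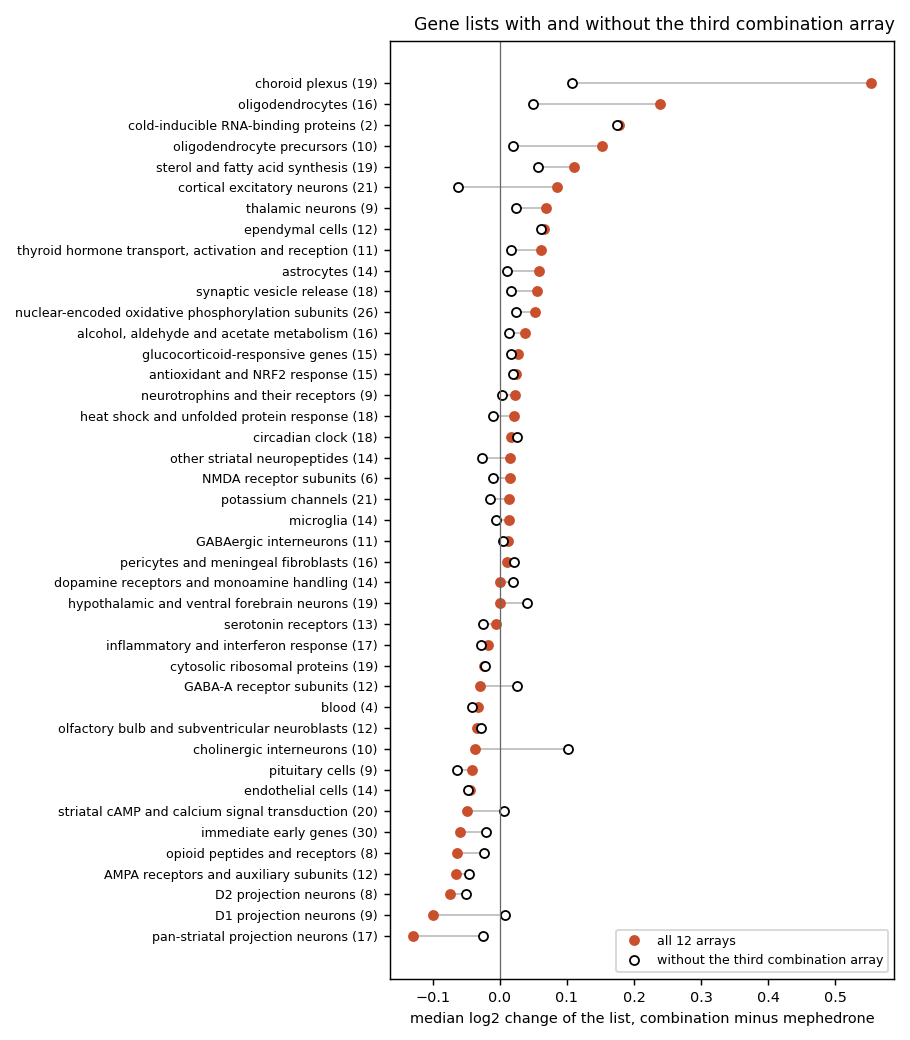
Median log2 difference, combination minus mephedrone, of 42 gene lists, with all 12 arrays in the fit (filled) and without the third combination array (open), with the number of measured genes in parentheses. Lines join the values of a list. Choroid plexus moves from 0.554 to 0.107 and cortical excitatory neurons from 0.085 to -0.063, while cold-inducible RNA-binding proteins stay at 0.177 and 0.174.

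Genes were named here by a rule that required no overlap between the arrays of the groups, so that such separation was fixed by the choice and is no result. Among the 10 genes named as lower in the combination, Gpx6, Npas4 and the growth hormone gene Gh had differences larger than 0.5 in log2 with and without the third array. Gpx6, a glutathione peroxidase, stood at 0.50, 0.58 and 0.85 in the mephedrone arrays and at 0.19, 0.01 and -0.33 in the combination arrays. The mephedrone arrays also lay above every saline array (-0.01, -0.27 and 0.14) and ethanol array (-0.36, -0.09 and -0.36). The difference between the combination and mephedrone was -0.69 (SE 0.145, 1.61-fold, adjusted p = 0.988 in limma), and -0.54 without the third array.

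Npas4, a transcription factor made in neurons after calcium entry, stood at 0.01, 0.22 and 0.10 with mephedrone and at -0.62, -0.51 and -1.01 with the combination. The mean was 0.11 ± 0.10 (SD, n = 3) with mephedrone and -0.71 ± 0.26 (SD, n = 3) with the combination, a difference of -0.82 (SE 0.220, 95% interval -1.30 to -0.34, adjusted p = 0.988 in limma). Without the third array the difference was -0.67. The saline arrays stood at 0.52, -0.01 and 0.18 and the ethanol arrays at 0.34, -0.10 and -0.65, so that the third ethanol array lay among the combination arrays.

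The thyroid hormone receptor gene Thrb stood at 0.04, -0.01 and 0.01 with mephedrone and at -0.28, -0.15 and -0.44 with the combination. The difference was -0.30 (SE 0.075) with all arrays and -0.23 without the third array, and all saline and ethanol arrays lay between -0.06 and 0.17. Fbxl21, an F-box protein that acts on the cryptochromes of the circadian clock, stood at 0.19, 0.14 and 0.16 and at -0.06, 0.02 and -0.46. Its difference of -0.33 became -0.18 without the third array, which was the lowest of the 6. P2ry1, a purinergic receptor, had -0.33 and -0.13 in the same fits, with the third array at -0.54 and the others of the combination at -0.01 and 0.13.

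Growth hormone (Gh), a pituitary transcript, had the largest difference among these 10 genes, -1.21 (SE 0.485), and 1 mephedrone array set most of it. It stood at 0.61, 0.22 and 2.42 with mephedrone and at -0.30, -0.01 and -0.08 with the combination, and without the third mephedrone array the difference was -0.55. The saline arrays stood at 0.01, 0.83 and 1.47 and the ethanol arrays at -0.44, -0.17 and -0.14. Ethanol against saline, which shares no array with this comparison, gave -1.02 (SE 0.485) for Gh. Prl, the pituitary hormone prolactin, was likewise highest in the third mephedrone array, with 0.02, -0.02 and 0.51. The list mean of 9 pituitary markers was 0.05, 0.04 and 0.37 in the mephedrone arrays, and its part in the Gh value was not tested. Of the other genes named as lower, Ryr1, a calcium release channel, had -0.31 with all arrays, -0.26 without the third combination array and -0.20 without the third mephedrone array. Oscar, an immune receptor, had -0.31 and -0.36 with and without the third combination array, and Pilra, an inhibitory immune receptor, -0.32 in both fits. Dnah6, an axonemal dynein, had -0.39 and -0.29, while its other probe sets gave -0.25 and -0.30 with all arrays and -0.12 and -0.17 without the third one. Of the 10 genes named as lower, the third array was the most extreme of the 6 arrays for 7, and 5 had a difference of at least 0.3 in size without it.

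Among the 10 genes named as higher in the combination, the third array was the highest of the 6 arrays for 8. Gfap, the intermediate filament of astrocytes, stood at 0.06, -0.11 and -0.30 with mephedrone and at 0.18, 0.13 and 1.03 with the combination. Its difference was 0.57 (SE 0.202, 95% interval 0.12 to 1.01, adjusted p = 0.988 in limma), and 0.27 without the third array.

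Padi2, a peptidylarginine deiminase of oligodendrocytes, stood at -0.01, -0.08 and -0.10 with mephedrone and at 0.20, 0.05 and 0.58 with the combination. Its difference was 0.34, and 0.19 without the third array. Pllp, a proteolipid of myelin membranes, stood at -0.06, -0.02 and -0.06 and at 0.12, 0.06 and 0.66, a difference of 0.33 that was 0.14 without that array. The protease Adamts4 (0.30 and 0.15), the microtubule regulator Slain1 (0.31 and 0.16), the matrix protein Edil3 (0.33 and 0.15) and the secreted Lgals3bp (0.40 and 0.19) showed the same pattern. These values stood beside oligodendrocyte list means of 0.54 in the third combination array and -0.15 to 0.02 in all other arrays of both groups. The part of those markers in the values of these genes was not tested.

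Ak7 and Gas5 differed in that the third array did not stand apart. Ak7, an adenylate kinase of motile cilia, stood at 0.05, -0.25 and -0.11 with mephedrone and at 0.11, 0.27 and 0.24 with the combination, a difference of 0.31 (SE 0.085) and of 0.29 without the third array. Rsph1, a radial spoke protein of the same organelle, had 0.29 and 0.28. The list mean of 12 ependymal markers was 0.05, -0.08 and -0.03 in the mephedrone arrays and 0.05, 0.07 and 0.11 in the combination arrays. Of these markers 9 were above and 3 below 0 with all arrays (median 0.066). The axonemal dynein Dnah6, which is outside this list, went the other way, with -0.39 and -0.29 as given above. Gas5, a noncoding RNA that hosts small nucleolar RNAs, stood at 0.01, -0.03 and -0.27 and at 0.26, 0.27 and 0.19, a difference of 0.34 (SE 0.103) at 1 of its 4 probe sets. The other probe sets of Gas5 gave 0.03, 0.01 and -0.02.

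**Figure D4:**
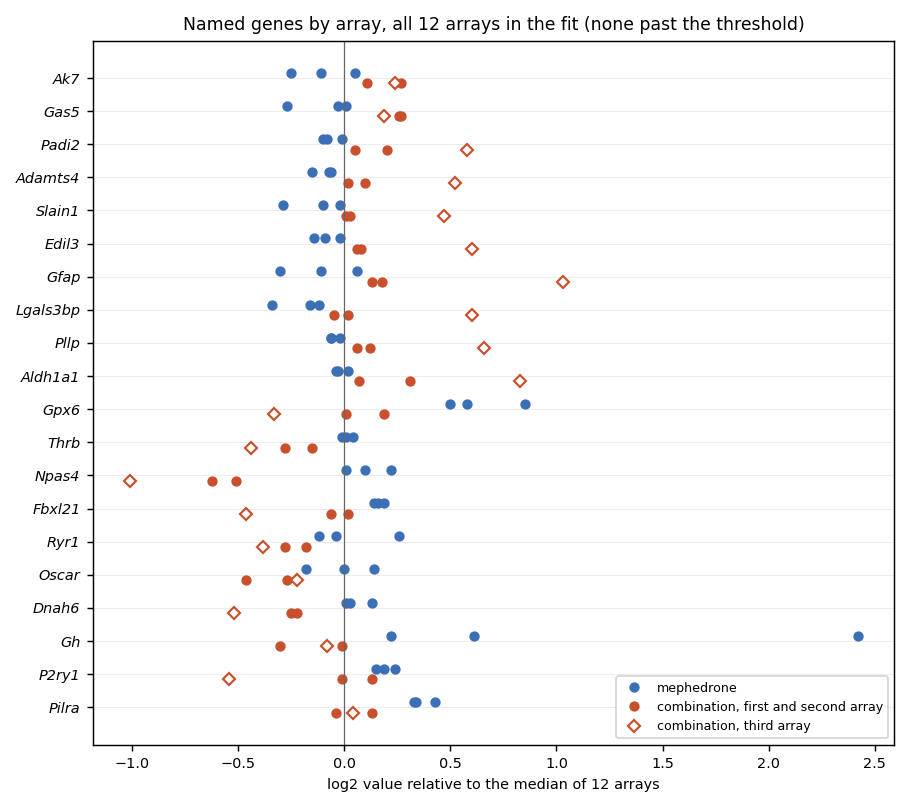
Log2 values, relative to the median of the 12 arrays, of the 20 genes named from the fit with all arrays, in the mephedrone arrays (blue), the first and the second combination array (filled red) and the third (open diamond). No gene passed the test. The diamond is the highest point for 8 of the 10 upper genes and the lowest for 7 of the 10 lower ones, and 1 mephedrone array lies at 2.42 for Gh.

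The fit without the third array named a partly different set of genes, and here too none passed. Of its 8 higher genes 1, Gas5, was also named with all arrays, and of its 10 lower genes 4 were, Gpx6, Npas4, Oscar and Gh. Sap130, a subunit of the Sin3 corepressor complex, stood at -0.03, 0.00 and -0.05 with mephedrone and at 0.36 and 0.31 in the first and the second combination array, a difference of 0.37 (SE 0.088). The third array, at 0.06, also lay above the mephedrone arrays.

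Clec12a, a myeloid C-type lectin receptor, stood at 0.20, -0.02 and 0.01 with mephedrone and at 0.43, 0.55 and -0.78 with the combination. Its difference was 0.42 without the third array and 0.00 with it, so that the array decided the value. Rgs12, a regulator of G protein signalling, had 0.32 without and 0.36 with it, and Mzt1, a component of microtubule nucleation, 0.51 and 0.54. The other probe set of Mzt1 gave 0.22 and 0.15, and the saline arrays at the named one ranged from -0.91 to 0.08. Among lower genes, Fxyd5, a regulator of the sodium pump, had -0.33 and -0.25, Arpin, an inhibitor of the Arp2/3 complex, -0.39 and -0.30, and Cox7b, a subunit of cytochrome c oxidase, -0.44 and -0.33. The other probe set of Cox7b gave -0.32 and -0.24. For Tac2, which encodes neurokinin B, the mephedrone arrays stood at 0.00, -0.53 and -0.45 and the combination arrays at 0.35, 0.17 and -0.58. Its 0.59 without the third array became 0.31 with it, and the saline arrays alone ranged from -1.26 to 1.25.

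Drd3, the D3 dopamine receptor, had a wide interval around 0, and the third array set its value. It stood at 0.05, -0.31 and 0.25 with mephedrone and at 0.00, 0.00 and -1.05 with the combination. The first and the second combination array lay inside the range of the mephedrone arrays. The difference was -0.35 (SE 0.255, 95% interval -0.91 to 0.21, adjusted p = 0.988 in limma) with all arrays and 0.00 (95% interval -0.37 to 0.37) without the third array. Ethanol against saline, which shares no array with this comparison, gave 0.53 (SE 0.255) for Drd3.

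The other dopamine receptors were named after their values were seen. Drd1 and Drd2, the receptors of the projection neurons, were both lowest in the third combination array. Drd1 stood at 0.04, -0.01 and 0.03 with mephedrone and at 0.01, 0.05 and -0.43 with the combination, and its difference of -0.14 became 0.01 without the third array. Drd2 stood at -0.03, -0.01 and 0.02 and at -0.03, -0.01 and -0.42, with -0.15 and -0.02. Drd4 and Drd5 had 0.01 and -0.01 with all arrays. Th, the rate-limiting enzyme of dopamine synthesis and also named after the fact, stood at 0.20, -0.09 and 0.32 with mephedrone and at 0.38, 0.31 and -0.36 with the combination. Of 14 measured genes of dopamine receptors and monoamine handling, 7 were above and 7 below 0 with all arrays. The smallest unadjusted p in the list belonged to Maoa, which degrades monoamines, with 0.11 (SE 0.058) with all arrays and 0.11 without the third array.

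The genes of striatal cAMP and calcium signalling, which pass on dopamine receptor activity, were below 0 in 19 of 20 cases with all arrays (median -0.049) and in 9 of 20 without the third array (median 0.006). Rgs2, which limits G protein signalling, stood at -0.04, 0.04 and -0.63 in the combination arrays. Gnal, the G protein subunit that couples D1 receptors to adenylyl cyclase, stood at 0.04, -0.03 and 0.02 with mephedrone and at -0.06, 0.00 and -0.34 with the combination. Opioid peptides and receptors had 7 of 8 members below 0 in both fits, with medians of -0.064 and -0.023. Penk, which encodes the enkephalin precursor of D2 neurons, had -0.09 and -0.02, and the kappa opioid receptor Oprk1 stood at 0.16, 0.13 and 0.30 with mephedrone and at 0.09, 0.27 and -0.23 with the combination. Tac1, the substance P precursor of D1 neurons, had -0.11 with all arrays and 0.02 without the third array.

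Receptors on which ethanol acts had small differences. The median was -0.029 for 12 GABA-A receptor subunits and 0.015 for 6 NMDA receptor subunits, and 0.025 and -0.011 without the third array. Gabrg3, a gamma subunit, stood at 0.04, -0.08 and 0.07 with mephedrone and at -0.08, 0.01 and -0.48 with the combination. Grin2b, an NMDA receptor subunit, had -0.07 (SE 0.039), and -0.04 without the third array. The AMPA receptor subunits Gria1 and Gria2 had -0.12 (SE 0.050) and -0.11 (SE 0.042), with -0.07 and -0.08 without the third array, and their list median was -0.066 and -0.046. The serotonin receptor Htr6 had -0.15 (SE 0.057) and Htr1b -0.20 (SE 0.102), with -0.10 and -0.08 without the third array. Their list had 6 of 13 members above 0 in both fits. Its count of unadjusted p-values under 0.05 in limma was 1 of 13 with all arrays, against 3.31% of all genes. Without the third array it was 0 of 13, against 1.82%.

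Enzymes of alcohol, aldehyde and acetate metabolism were above 0 in 15 of 16 cases with all arrays and in 10 of 16 without the third array, with medians of 0.038 and 0.013. Aldh1a1, which oxidises retinaldehyde and acetaldehyde, stood at -0.03, 0.02 and -0.04 with mephedrone and at 0.31, 0.07 and 0.83 with the combination. Its difference was 0.42 (SE 0.164) with all arrays and 0.21 without the third array. Aldh9a1, an aminobutyraldehyde dehydrogenase, had 0.14 and 0.07. Sterol and fatty acid synthesis genes were above 0 in 19 of 19 cases (median 0.111) and in 15 of 19 without the third array (median 0.057). Srebf1, a transcription factor of lipid synthesis, had 0.16 and 0.08, and Idi1, an isoprenoid enzyme, 0.22 and 0.13, beside the oligodendrocyte and astrocyte list means given above, whose part was not tested.

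Immediate early genes, a readout of recent neuronal activity, were below 0 in 22 of 30 cases with all arrays and in 20 of 30 without the third array, with medians of -0.060 and -0.021. Npas4 was the 1 member of 30 with an unadjusted p under 0.05 in limma with all arrays, where 3.31% of all genes had one. Without the third array 3 of 30 had one, all lower, against 1.82% of all genes. These were Npas4, Btg2 (-0.26), an antiproliferative factor, and Trib1 (-0.14), a pseudokinase, and the last 2, named after their values were seen, had -0.16 and -0.05 with all arrays. Klf4, which had the next smallest p, differed by 0.08 (SE 0.046). Nr4a1, likewise named after its values were seen, stood at -0.30, -0.24 and 0.16 with mephedrone and at -0.15, -0.11 and -0.66 with the combination. The third combination array was the lowest of the 6. Nr4a2, seen after the fact to have the widest spread, stood at -0.02, 0.40 and 0.00 and at 0.07, 0.38 and 1.63. Bdnf, a neurotrophin made on activity in cortical neurons, differed by 0.01 (95% interval -0.09 to 0.12), and by -0.03 without the third array. Its 6 values lay between -0.07 and 0.11. Of the neurotrophin receptors, Ntrk3 had -0.15 (SE 0.060) with all arrays and -0.07 without the third array. Ngfr had 0.20 (SE 0.110), and 0.13 without the first combination array.

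A few genes of the circadian clock stood higher in all combination arrays than in all mephedrone arrays, though none passed. Of all genes 1871 of 19938 (9.38%) had no overlap between the arrays of the groups, in either direction. Of 18 measured clock genes 11 were above 0, with a median of 0.016, and 4 of them had an unadjusted p under 0.05 in limma, against 3.31% of all genes. Without the third array the count was 2 of 18 (Nr1d1 and Ciart), against 1.82%. The 4 were Nr1d1, Bhlhe40, Ciart and Nfil3, of which Ciart and Nfil3 (0.10) were named after their values were seen. Nr1d1, the repressor REV-ERB alpha, stood at -0.07, 0.02 and 0.06 with mephedrone and at 0.20, 0.13 and 0.22 with the combination, a difference of 0.18 (SE 0.063) and of 0.16 without the third array. Ciart, a repressor of the clock, stood at 0.15, 0.35 and 0.30 and at 0.47, 0.49 and 0.45, with 0.21 and 0.22. Bhlhe40, which represses E-box genes, stood at 0.04, 0.04 and -0.05 and at 0.22, 0.13 and 0.52, with 0.28 and 0.16. The hour of collection is not given in the labels.

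The cold-inducible RNA-binding proteins Rbm3 and Cirbp, whose transcripts rise at lowered body temperature, were also higher in each combination array than in each mephedrone array. Such a lack of overlap, in either direction, was found in 9.38% of all genes. Rbm3, over its 3 probe sets, stood at 0.11, 0.08 and 0.07 with mephedrone and at 0.22, 0.30 and 0.36 with the combination, a difference of 0.21 (SE 0.069, adjusted p of at least 0.992 in limma over all genes). Cirbp stood at 0.06, 0.01 and 0.00 and at 0.25, 0.14 and 0.11, a difference of 0.15 (SE 0.077, unadjusted p = 0.0809 in limma). Without the third array the differences were 0.17 and 0.18.

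The smallest unadjusted p among the named genes belonged to an endothelial marker. Tek, the angiopoietin receptor TIE2 of vessel walls, stood at 0.04, 0.06 and 0.06 with mephedrone and at -0.13, -0.14 and -0.14 with the combination. Its difference was -0.19 (SE 0.035, 95% interval -0.27 to -0.12, unadjusted p = 0.000196 and adjusted p = 0.988 in limma), and -0.19 without the third array. Cldn5, a tight junction protein of the blood-brain barrier, stood at -0.01, -0.04 and -0.19 and at -0.21, -0.35 and -0.30, with -0.21 and -0.20. Of 14 measured endothelial markers 9 were below 0, and 4 had an unadjusted p under 0.05 in limma, against 3.31% of all genes. Without the third array 3 of 14 had one (Tek, Cldn5 and Abcb1a), against 1.82%. The remaining pair of the 4, Abcb1a (-0.15), an efflux pump of the barrier, and Tie1 (-0.09), were chosen after their values were seen. The list median was -0.044 with all arrays and -0.048 without the third array.

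Housekeeping lists and lists of stress and hormone response genes had medians of at most 0.053 in size with all arrays. Subunits of oxidative phosphorylation had 22 of 26 members above 0 with a median of 0.053, and 18 of 26 with a median of 0.024 without the third array. Ndufs1, the largest subunit of complex I, stood at 0.09, -0.03 and 0.00 with mephedrone and at 0.22, 0.21 and 0.23 with the combination, a difference of 0.20 (SE 0.045) and of 0.19 without the third array. Cytosolic ribosomal proteins had 14 of 19 members below 0 with a median of -0.024, and 13 of 19 with a median of -0.022 without the third array. Rps19 stood at 0.02, 0.18 and 0.09 and at -0.09, -0.07 and -0.17, a difference of -0.21 (SE 0.058). Genes of the heat shock and unfolded protein response had a median of 0.021 with all arrays, which turned to -0.011 without the third array. The median was 0.024 and 0.019 in these fits for the antioxidant response, and 0.027 and 0.017 for glucocorticoid-responsive genes.

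The interaction asked whether the difference with ethanol was the same with and without mephedrone, as the combination minus mephedrone less ethanol minus saline. No probe set passed (0 of 28853 in limma, smallest adjusted p 0.786), with 991 (3.43%) under an unadjusted p of 0.05, and 0 passed without the third combination array, where 890 (3.08%) were under it. Ethanol against saline alone also had 0 calls in limma, with 1440 probe sets (4.99%) under an unadjusted p of 0.05. Across all probe sets the 2 differences had a Pearson correlation of 0.118, a description over genes that are not independent replicates.

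Tek had the smallest interaction p among the named genes. It stood at -0.04, -0.03 and -0.02 with saline and at 0.16, 0.02 and 0.08 with ethanol, a difference of 0.12 with ethanol alone against -0.19 beside mephedrone. The interaction was -0.31 (SE 0.050, unadjusted p = 6.96e-05 and adjusted p = 0.786 in limma), also without the third array. C4b, a complement component, stood at 0.00, -0.03 and 0.01 with mephedrone and at 0.19, 0.20 and 0.30 with the combination, but at 0.11, 0.00 and 0.00 with saline and at -0.19, -0.16 and -0.05 with ethanol. Its interaction was 0.41 (SE 0.067, unadjusted p = 8.18e-05 and adjusted p = 0.786 in limma), and 0.37 without the third array.

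The other genes named for the interaction had opposite signs in the 2 differences. Genes were named here by the p and the size of the interaction, a choice that favours opposite signs, so that the signs are no result. Dusp6, a phosphatase of the ERK pathway, was 0.28 with ethanol alone and -0.07 beside mephedrone, an interaction of -0.35 (SE 0.080). Its ethanol arrays stood at 0.32, 0.33 and 0.27, above all combination arrays (-0.13, 0.00 and -0.02). Ocel1, which resembles the tight junction protein occludin, had -0.62 (SE 0.125), L3hypdh, a hydroxyproline dehydratase, -0.31, and Pde9a, which hydrolyses cGMP, -0.33. Rfxank, a regulator of MHC class II genes, had 0.30, Plxnd1, a semaphorin receptor, 0.39, the proteoglycan Cspg4b 0.39 and Gal3st1, which makes the myelin lipid sulfatide, 0.35. The interaction for Drd3 was -0.88 (SE 0.360, adjusted p = 1 in limma) and -0.53 without the third array.

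**Figure D5:**
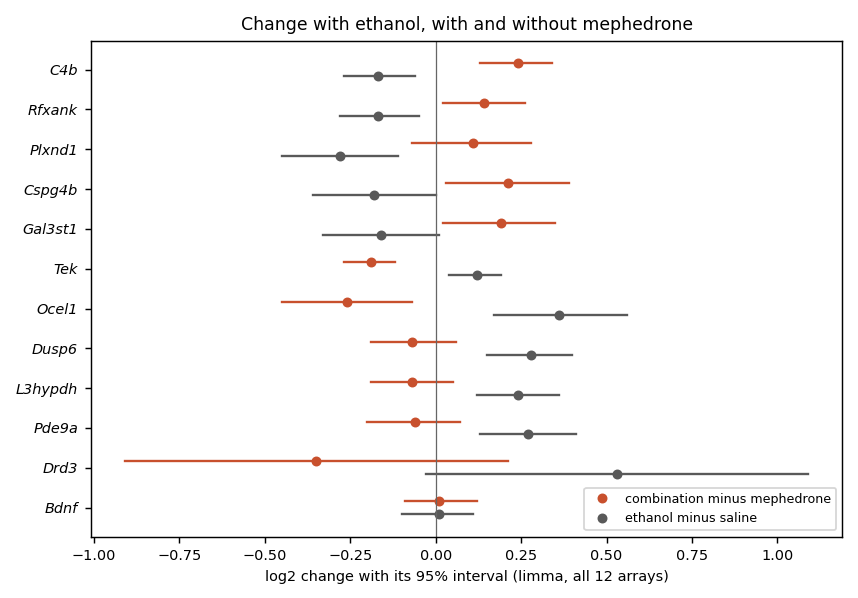
Log2 difference with its 95% interval (limma, all 12 arrays) for the combination minus mephedrone (red) and for ethanol minus saline (grey), in the 10 genes named for the interaction and in Drd3 and Bdnf. No interaction passed the test. Tek lies at -0.19 and 0.12, C4b at 0.24 and -0.17, and Drd3, with the widest intervals, at -0.35 and 0.53.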

How the data were processed

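Total RNA from 12 samples was measured on Affymetrix whole-transcript arrays. The deposited values are log2 expression made by the authors with RMA and the genome build mm8, per the submitters' processing notes, and GeneSpring GX 7.3.1 is named in the series design text. The scale and the centring are not stated: the median of each of 28853 probe sets over the 12 arrays was 0 within 7e-07. There were 0 missing values, and the number of arrays limits the precision. Arrays were not renormalised. Group means of all 12 arrays (11 without the third combination array) were fitted with limma 3.58.1 in R 4.3.3 (lmFit, eBayes, 8 residual and 3.11 prior degrees of freedom), two-sided, with Benjamini-Hochberg adjustment over all probe sets and a threshold of 0.05. The fit was tested on simulated data.

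The platform annotation gave 21789 probe sets 1 symbol and 1621 several, and 5443 were not listed; 21698 symbols were matched to RefSeq through Entrez identifiers and 91 were kept as given. For the 42 lists the probe sets of each of 19938 genes were averaged. The members and the lists were chosen with earlier results of these data known. Named were, among symbols without overlap between groups and with a difference of at least 0.3, the 10 smallest unadjusted p-values a direction with all arrays and without the third combination array (8 qualified as higher in the latter), 5 a direction for the interaction regardless of overlap, Drd3, Bdnf, the 2 smallest p-values per list, and the 2 members per cell type list that differed most in the third array. Olfactory, vomeronasal and taste receptors, small RNAs and predicted transcripts were not named. Alternatives covered normalisation, weights, covariates, filters and left-out arrays.

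Same-numbered mephedrone and combination arrays were not taken as pairs: the correlations of their deviations from the group means were -0.253 to -0.13, with 0 of 3 over 0.1. Over all 4 groups these correlations ranged from -0.253 to 0.396, with 6 of 18 over 0.1. The replicate number was therefore also tried as a block, as given below.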

Additional observations from a re-analysis of the deposited data

How the results depend on the processing

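The count of probe sets past the threshold was 0 in 20 of 21 alternative settings for the combination against mephedrone, in 17 of 18 without the third combination array and in 20 of 20 for the interaction. With the replicate number as a block the count was 0, with 1108 unadjusted p-values under 0.05, and the block changed no call. Leaving out 1 array at a time gave 0 to 1 in both comparisons. The call without the second combination array was a probe set with no symbol (0.88, adjusted p = 0.00663 in limma), and that without the first and the third was Tph1 (0.68, adjusted p = 0.00555 in limma), whose remaining combination array stood at 0.70 and was assumed to vary like the other groups. An unadjusted p under 0.05 with at least a 1.5-fold difference was met by 17 probe sets, and by 5 without the third array. The unadjusted count under 0.05 ranged from 584 to 2016 over the settings for all arrays, with 766 when choroid plexus and cortical list means were covariates. Of 139 genes followed over 9 settings, 131 kept their sign and 0 passed the threshold. Of the other 8, 7 changed sign without the third combination array and Trib1 without the second. A gene chosen for its lack of overlap cannot change sign when 1 array is left out. The block leaves the size of a difference as it was with all arrays. The count of kept signs was thus partly fixed by the choice of genes and is no support for them. With single arrays left out Drd3 ranged from -0.52 to 0.00, Bdnf from -0.03 to 0.04, Tac1 from -0.18 to 0.02, Drd1 from -0.23 to 0.01, Drd4 from -0.02 to 0.04, Drd5 from -0.04 to 0.04, Th from -0.17 to 0.20 and Trib1 from -0.14 to 0.00. Quantile normalisation gave -0.01 for Bdnf, 0.01 for Drd5 and 0.03 for Th, and array weights gave -0.02 for Bdnf, -0.02 for Drd4, 0.02 for Drd5 and 0.14 for Th. Of 42 list medians 10 had the opposite sign without the third array. The cause of these shifts was not tested. A filter on low means could not be used in a centred table, and the 30% least variable probe sets were left out instead, with 715 unadjusted p-values under 0.05. Signal over background is not in a centred table.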
